A study of Mus musculus with 2 samples.

Results

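Slc5a1, Slc2a2, Slc2a5 and Pck1 are 3 sugar transporter genes and 1 gene of glucose production. They were taken by gene symbol from the authors' deposited table that compares the diets, in which each has 1 probe set. They make up 4 of 1625 listed probe sets and 4 of 1559 named genes. Gene names came from that table alone, so any other probe sets of these genes on the array were not examined. The choice by symbol applied no threshold on their values, but it was made with earlier results of these data known, and the authors had listed each gene by a rule not given in the sources used here. Expression had been measured with 1 Affymetrix array per diet. Mice on the high-glucose diet (HGD) ate 20% glucose for 4 weeks, and control mice ate AIN76 as regular chow for the same time. All were male C57BL/6J mice aged 4 weeks before acclimation, acclimated for 2 weeks and aged 10 weeks at the end, and the tissue is labelled as jejunum. How many animals stand behind an array is not stated in the sources used here.

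Absorptive cells of the small intestine take up glucose and galactose from the gut lumen with the sodium-coupled transporter SGLT1 (Slc5a1) and fructose with the facilitative transporter GLUT5 (Slc2a5). The facilitative transporter GLUT2 (Slc2a2) passes sugars on across the basolateral membrane towards the blood. Pck1 encodes the cytosolic phosphoenolpyruvate carboxykinase, which turns oxaloacetate into phosphoenolpyruvate and is a control point of glucose production and of glycerol synthesis from non-sugar carbon. Slc2a2 and Pck1 are also abundant in liver and kidney, whereas Slc5a1 and Slc2a5 are best known from the brush border of the small intestine. In the liver, insulin and glucose intake lower Pck1 transcription, and glucagon raises it through cyclic AMP.

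Values came from both kinds of deposited data. The first is the signal log ratio (SLR) of the authors' deposited table, a log2 value of the high-glucose diet against control in steps of 0.1. The second is the MAS5 signal, a linear intensity per probe set on each array. No source used here states that the SLR was computed from these deposited signals, so neither measure is read as a check on the other. The signals were lower on the high-glucose array almost throughout, with a median of 7.9 on that array and 13.1 on the control array. A probe set was called expressed when its mean log2 signal reached the median of all probe sets that are not controls, which 11315 probe sets did. The median log2 ratio of these was -0.97, a 1.96-fold lower signal on the high-glucose array, and is called the array-wide shift. Ratios measured from the shift are called relative log2 ratios. The 18 hybridisation spikes, RNAs added for quality control, had a median log2 ratio of 0.12 as deposited. The cause of the shift was not tested. With 1 array per diet no test is possible, and no difference below can be separated from variation between animals or hybridisations.

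The promoter windows of the 4 genes are printed here, and they differ in their letter matches to short sequence elements. Each window runs from 250 bases before to 50 after the transcription start, comes from RefSeq (build GRCm38.p6) and lies on the plus strand. The windows are chr5:33103969-33104268 for Slc5a1, chr3:28697653-28697952 for Slc2a2, chr4:150119094-150119393 for Slc2a5 and chr2:173152823-173153122 for Pck1. Capitals mark matches, on either strand, to elements searched by their letters. These were the cyclic AMP response element (CRE) as the palindrome TGACGTCA, its form TTACGTCA and its core TGACG. Further elements were the palindromic E-box CACGTG, the TATA box TATAAA, the HNF1 core GTTAAT, the nuclear receptor core AGGTCA and the CCAAT box.
Slc5a1: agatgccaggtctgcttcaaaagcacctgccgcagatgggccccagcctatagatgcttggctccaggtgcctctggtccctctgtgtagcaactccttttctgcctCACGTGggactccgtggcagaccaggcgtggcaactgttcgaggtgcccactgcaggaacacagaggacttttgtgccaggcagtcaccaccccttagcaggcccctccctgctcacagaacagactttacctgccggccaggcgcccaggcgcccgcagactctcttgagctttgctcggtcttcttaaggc
Slc2a2: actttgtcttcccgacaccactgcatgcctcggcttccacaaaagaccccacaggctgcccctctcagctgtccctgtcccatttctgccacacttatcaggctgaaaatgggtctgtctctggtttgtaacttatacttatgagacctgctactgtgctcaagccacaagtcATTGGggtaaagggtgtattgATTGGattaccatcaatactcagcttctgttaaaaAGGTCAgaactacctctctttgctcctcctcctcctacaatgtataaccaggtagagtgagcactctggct
Slc2a5: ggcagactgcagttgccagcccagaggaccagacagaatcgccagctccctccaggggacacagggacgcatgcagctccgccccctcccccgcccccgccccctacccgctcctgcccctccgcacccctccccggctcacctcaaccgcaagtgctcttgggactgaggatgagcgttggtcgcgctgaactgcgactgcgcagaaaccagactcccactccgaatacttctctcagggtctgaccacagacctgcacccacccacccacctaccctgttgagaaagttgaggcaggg
Pck1: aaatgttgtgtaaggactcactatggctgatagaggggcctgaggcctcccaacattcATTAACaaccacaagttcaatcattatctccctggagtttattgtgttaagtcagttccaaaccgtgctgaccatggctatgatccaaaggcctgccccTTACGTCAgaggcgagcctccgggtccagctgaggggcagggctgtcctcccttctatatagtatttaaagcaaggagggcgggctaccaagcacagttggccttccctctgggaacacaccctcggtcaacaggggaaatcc

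The Pck1 window held the octamer TTACGTCA at positions -93 to -86, counted from the start of transcription. This form of the CRE is best studied in the rat Pck1 promoter and occurs in 0.499% of 32851 promoter windows of the same length. The shorter CRE core TGACG, in 20.8% of windows, matched within this octamer on the minus strand. The Pck1 window also held GTTAAT, the core of the site of the hepatocyte factor HNF1, on the minus strand at -192 to -187 (7.1% of windows). In the Slc5a1 window the palindromic E-box CACGTG lay at -143 to -138 (7.15% of windows). The Slc2a2 window held 2 CCAAT boxes on the minus strand (37.4% of windows have at least 1) and the nuclear receptor core AGGTCA at -21 to -16 (16.3% of windows). The looser E-box CANNTG matched 5 times for Slc5a1, 2 times each for Slc2a5 and Pck1 and 1 time for Slc2a2, against 72.3% of windows with at least 1 match. Its matches include the palindromic E-box of Slc5a1. None (0) of the 4 windows held TGACGTCA (1.79% of windows) or TATAAA (13.6%). The Slc2a5 window, with 0 matches in capitals, had the highest GC content at 65.3%, followed by Slc5a1 at 60.3%, Pck1 at 52% and Slc2a2 at 48%, where the median window had 52.7%. A match describes letters only, and these windows say nothing about which factors were bound in the samples.

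**Figure D1:**
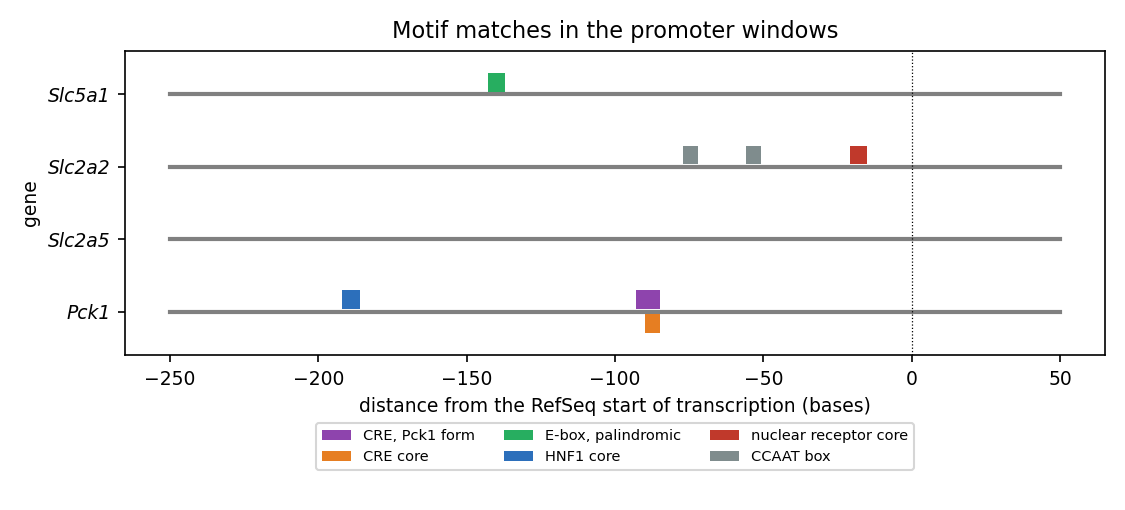
Motif matches in the promoter windows of the 4 genes, with the distance from the start of transcription in bases on the x axis and 1 line per gene. Coloured boxes are matches on either strand, without the loose E-box: the CRE form of Pck1 spans -93 to -86 with its core drawn below the line, the palindromic E-box of Slc5a1 spans -143 to -138, and Slc2a5 has 0 boxes.

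Slc5a1, the gene of the sodium-glucose cotransporter that carries dietary glucose into the enterocyte, lies on chromosome 5 from 33104219 to 33162699 (GRCm38.p6). Its probe set 1455431_at had a signal of 0.8 on the high-glucose array and 4.6 on the control array. Both signals were low for their array, at percentile 13.8 of the high-glucose array and percentile 28.2 of the control array. The high-glucose signal lay under a floor of 2.9 (the 25th percentile averaged over both arrays), so only a bound can be given. As deposited, Slc5a1 was at least 1.59-fold lower on high glucose, which is less than the array-wide shift of 1.96-fold, and its direction relative to the shift could not be told. This probe set did not count as expressed, and any other probe sets of Slc5a1 on the array were not examined. The authors' deposited table gives Slc5a1 an SLR of -0.3, or 1.23-fold lower, and 834 of the 1040 probe sets with a negative SLR lay lower.

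Slc2a2, which encodes GLUT2, lies on chromosome 3 from 28697903 to 28728361. Its probe set 1449067_at was bright, with a signal of 511.1 on the high-glucose array and 1426.9 on the control array. These signals stood at percentile 97.8 of the high-glucose array and percentile 98.5 of the control array. The signal as deposited was thus 2.79-fold lower on high glucose, with a log2 ratio of -1.48. Relative to the array-wide shift it was 1.42-fold lower, a relative log2 ratio of -0.51, short of the 1.5-fold mark used for counts. Bright probe sets scatter less, and among the 500 expressed probe sets nearest in level only 24 had a lower ratio than Slc2a2. The quartiles of those 500 were -0.09 and 0.31 in relative log2 ratio. The SLR of Slc2a2 in the authors' deposited table was -0.6, or 1.52-fold lower. Both measures were thus negative, and the SLR lay close to the relative log2 ratio of -0.51 but not to the -1.48 as deposited.

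Slc2a5, which encodes the fructose transporter GLUT5, lies on chromosome 4 from 150119344 to 150144168. Its probe set 1416639_at had a signal of 12.2 on the high-glucose array and 13.3 on the control array. The signal thus hardly differed between the arrays, and it was 1.54 times the array's median on the high-glucose array and 1.02 times on the control array. As deposited the log2 ratio was -0.12. Relative to the array-wide shift Slc2a5 was 1.8-fold higher on high glucose (relative log2 ratio 0.85). Ratios this far from the shift are not rare at so low a signal, and 415 of the 500 expressed probe sets nearest in level had a lower ratio than Slc2a5. The authors' deposited table gives Slc2a5 an SLR of -0.8, or 1.74-fold lower, the lowest of the 3 transporters. The measures therefore point in opposite directions for Slc2a5.

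Pck1, on chromosome 2 from 173153073 to 173159274, showed the widest gap between the measures among the 3 expressed genes. Its probe set 1423439_at had a signal of 1175.6 on the high-glucose array and 1889.9 on the control array. That placed it at percentile 99.1 of the high-glucose array and percentile 99.0 of the control array, with 204 and 225 brighter probe sets on those arrays. The signal as deposited was 1.61-fold lower on high glucose (log2 ratio -0.68). Relative to the array-wide shift it was 1.22-fold higher, a relative log2 ratio of 0.29, and 315 of the 500 expressed probe sets nearest in level had a lower ratio. Measured from the median of those 500 the value was 0.10. The authors' deposited table, however, gives Pck1 an SLR of -2.1, or 4.29-fold lower on high glucose. Only 32 of the 1040 probe sets with a negative SLR lay lower in that table, and 8 probe sets, Pck1 included, shared its value.

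**Figure D2:**
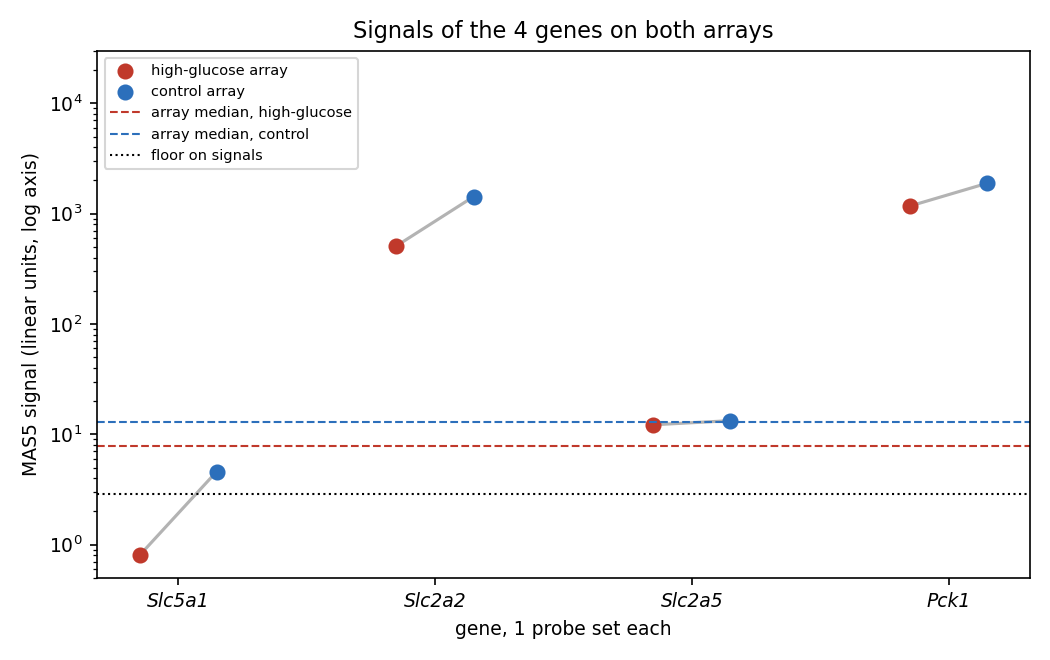
MAS5 signals of Slc5a1, Slc2a2, Slc2a5 and Pck1 on a log axis, with 1 probe set per gene, the high-glucose array in red left of the control array in blue. Dashed lines are the array medians and the dotted line is the floor of 2.9. Slc2a2 and Pck1 lie between 511.1 and 1889.9, Slc2a5 lies near the medians, and Slc5a1 lies below both medians.

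Over the 4 genes, all 4 SLR values were negative, which 64% of all listed probe sets were. Of the 4, Pck1 alone had an SLR of -1 or lower, as did 9.85% of listed probe sets. In the signals as deposited all 3 expressed genes were lower on high glucose, as were 94.7% of expressed probe sets. Of these, Slc2a2 and Pck1 were at least 1.5-fold lower, where 76.9% of expressed probe sets were, and 0 were at least 1.5-fold higher, where 1.22% were. Relative to the shift, Slc2a5 was the 1 gene at least 1.5-fold higher, where 14.7% of expressed probe sets were, and 0 genes were at least 1.5-fold lower, where 14.3% were. No order of abundance among the 4 genes can be read from the signals, because probe sets differ in affinity. Within each gene, the order of the diets was the same for all 4 as deposited, with the high-glucose array lower.

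**Figure D3:**
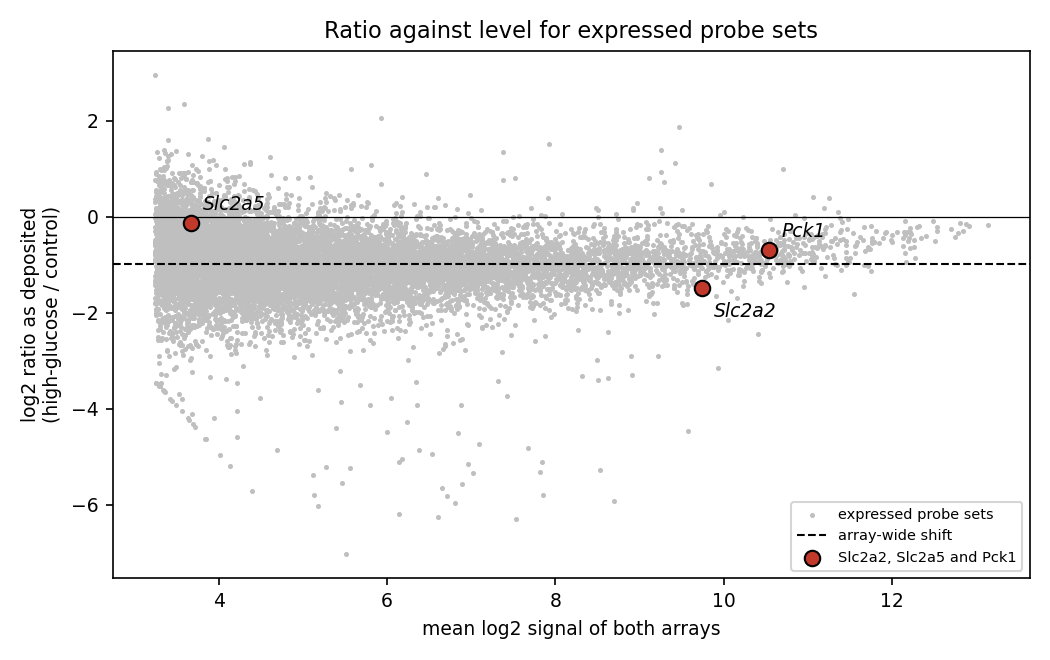
Log2 ratio as deposited (high-glucose over control) against the mean log2 signal of both arrays, for the 11315 expressed probe sets in grey and Slc2a2, Slc2a5 and Pck1 in red. The dashed line is the array-wide shift of -0.97. Slc2a2 lies below it at -1.48, Pck1 above it at -0.68 and Slc2a5 above it at -0.12, in the wide scatter of dim probe sets.

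Other expressed genes of sugar transport and digestion lay within 1.5-fold of the shift, as did most expressed probe sets. Of 31 genes on that list the authors' deposited table names 8, the transporters above included, and all 8 had a negative SLR (64% of listed probe sets), with a median of -0.55 against -0.4 over all listed probe sets. The basolateral and widely expressed glucose transporter Slc2a1 had signals of 33.3 on the high-glucose array and 62.2 on the control array (relative log2 ratio 0.07). Trehalase (Treh), a brush border enzyme that splits trehalose, had signals of 9.5 and 16.6 on the high-glucose and control arrays and a relative log2 ratio of 0.17. Atp1b1, a beta subunit of the sodium pump that keeps up the gradient SGLT1 uses, stood at -0.07. Over the 6 expressed genes of the list the median relative log2 ratio was 0.12, with 1 gene (Slc2a5) past 1.5-fold higher and 0 past 1.5-fold lower, against 14.7% and 14.3% of expressed probe sets. The SLR values in the authors' deposited table were -0.2 for Slc2a1, -0.6 for Treh and -0.5 for Atp1b1.

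The sugar transporter families SLC2 and SLC5 have 6 genes in the authors' deposited table, of which 5 had a negative SLR (64% of listed probe sets). The exception was Slc5a8, a carrier of short monocarboxylates rather than sugars, at 0.6. Its signals were 1.3 on high glucose and 1.6 on control, both under the floor. Slc5a4a, an SGLT3-type gene related to Slc5a1, stood at an SLR of -0.6 (authors' deposited table), with signals of 3.1 on the high-glucose array and 1.7 on the control array. Of these 6 genes only the 3 of the SLC2 family counted as expressed.

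Beside Pck1, the listed genes tied to glucose production mostly lay within 1.5-fold of the shift, as did most expressed probe sets. The authors' deposited table names 8 of 30 genes on the list of gluconeogenesis and its regulators, all with a negative SLR (64% of listed probe sets) and a median of -0.55. The enzyme genes Pck2, Fbp1, Fbp2 and G6pc of that list are not among the named ones and were not analysed here. All 8 named genes were expressed, with a median relative log2 ratio of 0.16. Of these, 1 was past 1.5-fold higher and 0 past 1.5-fold lower, against 14.7% and 14.3% of expressed probe sets. The gene past that mark was Ppargc1b, a coactivator of mitochondrial genes, at 0.71 with signals of 36.8 on the high-glucose array and 44.2 on the control array. The aminotransferases Got1 and Got2, which move oxaloacetate carbon between compartments, stood at 0.53 and 0.13. The regulators Rxra, Foxo3 and Ppara stood at 0.14, 0.01 and -0.03. Their SLR values in the authors' deposited table ran from -0.3 for Ppargc1b and Got2 to -0.7 for Ppara, so none came near the -2.1 of Pck1.

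Pyruvate carboxylase, which makes the oxaloacetate that phosphoenolpyruvate carboxykinase uses, is measured by 4 control probe sets of the array. Its 3' probe set had a signal of 142.7 on the high-glucose array and 242.5 on the control array, and the 5' probe set 16.4 and 30.3 on the same arrays. The relative log2 ratios of the 4 ran from 0.09 to 0.21, next to 0.29 for Pck1. The 3 control probe sets of the glycolytic enzyme Gapdh ran from -0.02 to 0.19. On the list of glycerol synthesis and use, Gpd1 and Gpd2, the cytosolic and mitochondrial glycerol phosphate dehydrogenases, stood at 0.30 and -0.30. The lipase gene Lipe, which did not count as expressed, had signals of 10.7 on the high-glucose array and 5.4 on the control array, while the authors' deposited table gives it an SLR of -0.5.

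On the side of sugar use, the glycolysis list had 7 of 30 genes in the authors' deposited table, 5 with a negative SLR (64% of listed probe sets) and a median of -0.4. Over its 5 expressed genes the median relative log2 ratio was -0.00, with 1 gene past 1.5-fold higher and 1 past 1.5-fold lower, against 14.7% and 14.3% of expressed probe sets. The higher one was the hexokinase gene Hk2, which starts glycolysis, at 0.89 with signals of 9.8 on the high-glucose array and 10.4 on the control array. These are dim signals, at percentiles 55.8 and 45.3 of those arrays, and the SLR of Hk2 points the other way, at -0.7 in the authors' deposited table. The lower one was Pklr, the pyruvate kinase of liver and intestine that responds to sugar, at -0.91 with signals of 29.2 on the high-glucose array and 107.8 on the control array. The authors' deposited table gives the enolase genes Eno2 and Eno3 an SLR of 3.4 and 3.2, although neither counted as expressed. The Eno2 signal was 0.2 on the high-glucose array and 6.1 on the control array, and the Eno3 signal was 6.8 and 6.1 on those arrays.

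Mlxipl, which encodes the glucose-responsive factor ChREBP, had a signal of 18.6 on the high-glucose array and 59.7 on the control array (relative log2 ratio -0.71). Pdk2, a kinase that restrains the pyruvate dehydrogenase complex, stood at -0.74. Srebf1, the insulin-responsive lipogenic factor, stood at -0.37 and, within the 9 lists of sugar handling, had the SLR nearest to that of Pck1, -1.0 in the authors' deposited table. Single listed genes of glycogen and of the pentose phosphate pathway, Gyg and Pgd, stood at -0.46 and -0.43. None (0) of the 17 genes on the list of fructose and galactose metabolism is named in that table, so they were not analysed here. Of the 31 listed genes beside the 4, in all 9 lists, 29 had a negative SLR, against 64% of listed probe sets, and 1, Srebf1, an SLR of -1 or lower, against 9.85%. Of the 25 of them that were expressed, 2 were at least 1.5-fold higher relative to the shift and 3 at least 1.5-fold lower, against 14.7% and 14.3% of all expressed probe sets.

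**Figure D4:**
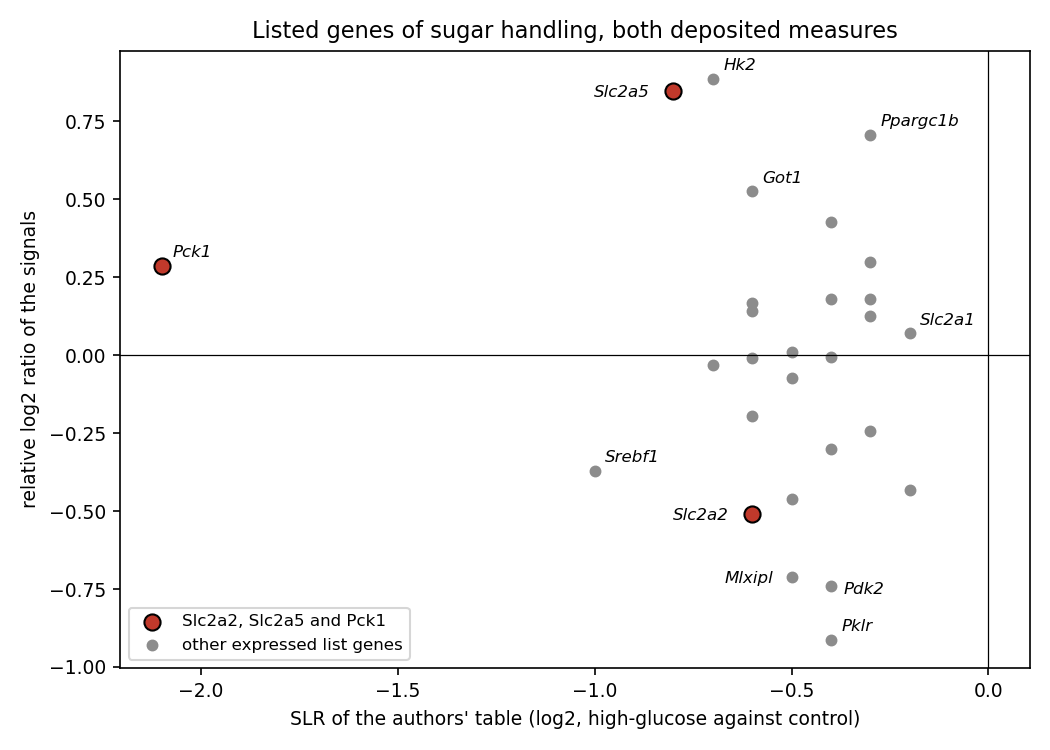
SLR of the authors' deposited table (x axis, log2) against the relative log2 ratio of the signals (y axis) for the expressed genes of the 9 lists of sugar handling, with 1 point per gene. Pck1 lies far left at -2.1 but at 0.29 on the y axis, Slc2a5 lies at -0.8 and 0.85, and Slc2a2 lies at -0.6 and -0.51, where both measures are negative.

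Genes with the most similar pair of values were sought among the other 1066 expressed named genes, by distance in the plane of SLR and relative log2 ratio. With 2 values per gene, from 1 array per diet, such likeness is a description only. Nearest to Slc2a2 were Ccser2, Enpp3 and Ccdc6, which share its SLR of -0.6 (authors' deposited table) and had relative log2 ratios of -0.51, -0.51 and -0.52. Nearest to Slc2a5 were Tox, Hk2 and Slc25a22, at distances of 0.069, 0.107 and 0.115. Nearest to Pck1 were the chemokine gene Cxcl13 with an SLR of -2.1, the kinase gene Sgk1 with -1.9 and the folate transporter gene Slc46a1 with -1.9 in the authors' deposited table. Their relative log2 ratios were 0.45, 0.48 and -0.08, and distances were 0.166, 0.277 and 0.417.

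Marker genes of several tissues were read on the same arrays to check the labelled tissue. Each signal is placed within its own array only, and levels are not compared between genes. Of 35 liver markers, 4 are named in the authors' deposited table, and 3 of them (Plg, Serpina1a and C3) lay above the 90th percentile of both arrays. These 3 stood at percentile 99.6 or higher on both arrays. Plasminogen (Plg) had signals of 1994 on the high-glucose array and 3968 on the control array. As deposited, the summed signal of the 4 liver markers was 9541 on the high-glucose array and 13517 on the control array. Their relative log2 ratios were spread, at -0.59 for Habp2, -0.02 for Plg, 0.63 for C3 and 0.65 for Serpina1a, with a median of 0.30. Thus 2 of the 4 were past 1.5-fold higher and 1 past 1.5-fold lower, against 14.7% and 14.3% of expressed probe sets. The authors' deposited table gives 3 of the 4 an SLR above 0, the median being 1.2 and Plg reaching 4.2. Over all listed probe sets 64% had an SLR below 0, and the median was -0.4. Of 23 enterocyte markers 8 are named, of which 7 were expressed and 3 (Fabp2, Apob and Apoa1) lay above the 90th percentile of both arrays. Apob and Apoa1 are made by liver as well. Fabp2, the intestinal fatty acid binding protein, had signals of 557.9 (percentile 97.9) on the high-glucose array and 455.3 (percentile 95.2) on the control array. The brush border peptidase genes Mep1a (13.0 and 7.0 on the high-glucose and control arrays) and Ace (16.7 and 14.9) lay below the 90th percentile of both arrays. Mep1a stood at percentiles 62.9 and 36.7 of those arrays, and Ace at 68.5 and 52.8. Of the 8 named enterocyte markers, 1 lay below the median of the high-glucose array and 3 below that of the control array. Of the 4 named liver markers, 0 lay below the median of either array.

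Most enterocyte markers lay on the same side of the shift as Slc2a5. The median relative log2 ratio of the 7 expressed enterocyte markers was 1.14, with 5 of 7 at least 1.5-fold higher against 14.7% of expressed probe sets. Of these 5, Mep1a, Lgals4 and Ace were dim, with signals of at most 16.7, where ratios scatter widely. The bright Fabp2 and Apoa1 stood at 1.26 and 0.83, while Apob and Anpep stood at 0.14 and -0.06. The part of enterocyte markers in the value of 0.85 for Slc2a5 was not tested. As deposited, the summed signal of all 8 named enterocyte markers was 9392 on the high-glucose array and 11274 on the control array. The authors' deposited table gives 5 of the 8 an SLR above 0 and a median of 0.65, whereas Slc2a5 stood at -0.8. Of all listed probe sets 64% had an SLR below 0, with a median of -0.4. All 5 named markers of pancreatic acinar cells were past 1.5-fold lower once the shift was taken out, where 14.3% of expressed probe sets were, with a summed signal of 104.5 on the high-glucose array and 4265 on the control array. The authors' deposited table, by contrast, gives 3 of these 5 an SLR above 0 (Clps at 1.2, Rnase1 at 0.6 and Zg16 at 0.5). Their median was 0.5, against -0.4 over all listed probe sets. Of 12 kidney markers only Nphs1 is named, with signals of 1.8 on the high-glucose array and 0.8 on the control array, and 0 of 9 adipocyte markers are named. The part of liver or pancreas RNA in the values of Slc2a2 and Pck1 was not tested. In bulk tissue, fewer cells of a type and less RNA per cell cannot be told apart.

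**Figure D5:**
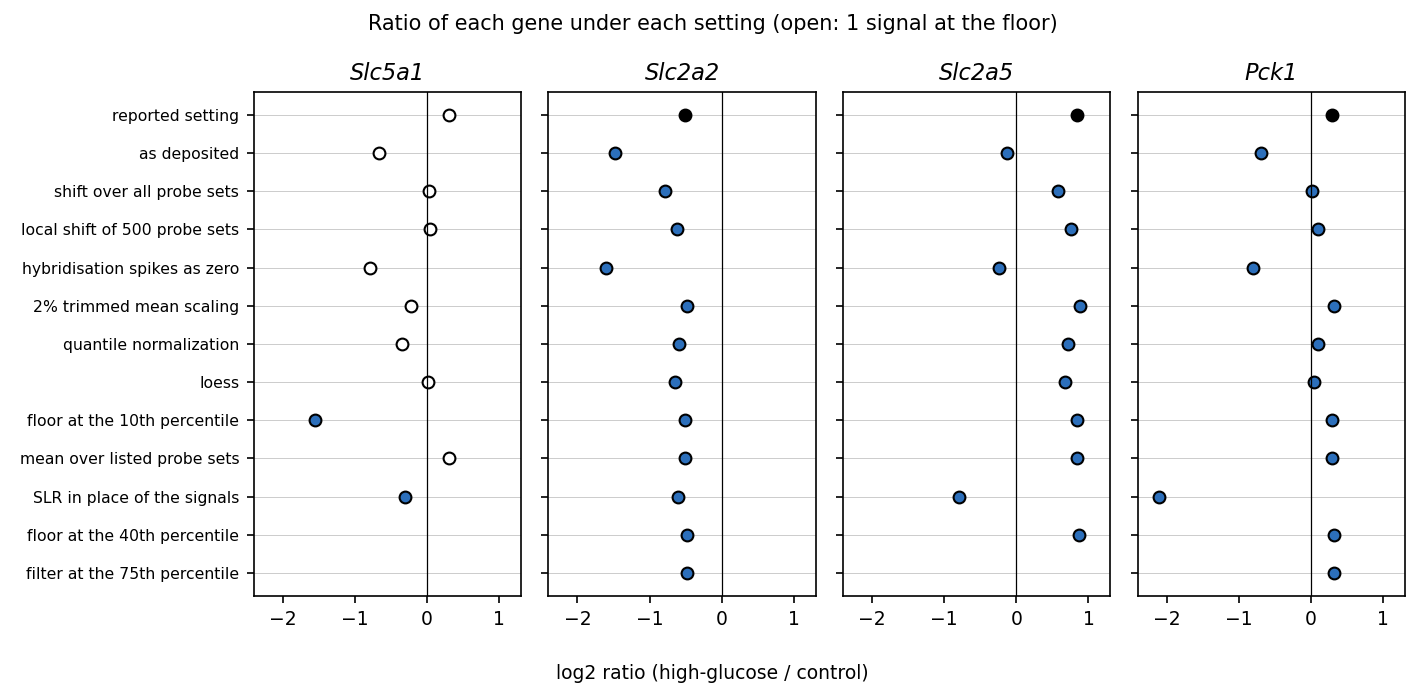
Log2 ratio of each gene, high-glucose over control, under the reported setting (top row, black) and 12 alternatives (blue), with open points where 1 signal is at the floor. Slc2a2 lies left of 0 under every setting shown. Slc2a5 and Pck1 lie left of 0 as deposited, with the hybridisation spikes as the zero point and for the SLR, and right of 0 under the others. Slc5a1 lies on both sides.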

How the data were processed

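The authors made the deposited intensity values with MAS5, a method of Affymetrix that gives each probe set 1 linear value per array. The method is named in the submitters' processing notes, without version or scaling target, and the medians over the 22690 probe sets differ between arrays. The authors' deposited table gives the SLR on the log2 scale, and its direction comes from the table's title. Its signed fold change column, also deposited, is the SLR as a fold and was not used. Biotin-labelled cRNA came from 6 ug total RNA, per the labels' protocols.

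The 22626 probe sets that are not controls were analysed with Python 3.11.15, pandas 2.3.3 and numpy 2.4.6. Signals were raised to a floor of 2.9 (the 25th percentile averaged over both arrays), and with 1 signal under it a ratio is only a bound. The array-wide shift was subtracted to set each ratio against the median of the expressed probe sets, and as deposited values are given too. Whether the shift arose in the measurement or in the samples was not tested. Each gene was represented by its brightest listed probe set, and loess used statsmodels 0.14.6. Gene names came from the authors' deposited table, of which 1314 were current in RefSeq GRCm38.p6, 213 were updated through a synonym, 56 were kept and 42 probe sets had none. Promoter windows matched all 4 genes.

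With 1 array per diet, no p-value is given, and the number of arrays limits the precision. The 4 genes and the 9 gene lists and 5 marker lists were chosen with earlier results of these data known. Named were the 4 genes, list members by size of SLR or relative ratio, and the 3 genes nearest to each expressed gene of the 4. A few further list members (such as Foxo3 and Got2) and control probe sets were named after their values had been seen. The ratio was tested on simulated data with a known shift. Alternatives covered the zero point, scaling, floor, filter and probe set rule. Values of 1 list member are not reported here.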

Additional observations from a re-analysis of the deposited data

How the results depend on the processing

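No paired analysis was possible because each diet has 1 array. As a yardstick for movement, the paired probe sets of 19 expressed genes differed in relative log2 ratio with an SD of 0.57. For Slc5a1, where 1 or both signals lay under the floor in most settings, the bound of 0.31 became -0.67 as deposited, -0.79 with the hybridisation spikes as zero and -0.35 after quantile normalization, the value with a floor at the 10th percentile was -1.55, and the SLR was -0.3. Slc2a2 moved to -1.48 as deposited and -1.60 with the spikes as zero, and was negative in all 12 alternatives. Slc2a5 turned to -0.12 as deposited, -0.25 with the spikes as zero and -0.8 in the SLR of the authors' deposited table, and was positive in the other 8. Pck1 moved to -0.68 as deposited, -0.81 with the spikes as zero and -2.1 in the SLR of the authors' deposited table, and was positive in the other 9, from 0.01 to 0.32. The as deposited setting leaves the array-wide shift in place by construction. The spike setting also leaves it in place, because the spikes themselves had a median log2 ratio of 0.12. Whether the SLR came from the deposited signals is not stated in the sources used here. The cause of the difference between SLR and signals was not tested.

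The list medians moved by less than that SD in all 6 alternatives each, but all of these take the array-wide shift out. That SD is between single probe sets and does not measure the spread of a median. The medians ran from 0.08 to 0.17 for sugar transport and digestion and from 0.16 to 0.24 for gluconeogenesis. For glycolysis, which rests on 3 to 7 genes, they ran from -0.09 to 0.43, negative in 3 alternatives and positive in 3. The as deposited and spike settings, which moved single genes most in the signals, were not run for the lists. In the SLR of the authors' deposited table the medians were negative, at -0.55, -0.55 and -0.4 for these lists in the same order. Slc5a1 had no value with a floor at the 40th percentile, where both signals lie under it, and neither Slc5a1 nor Slc2a5 had one with the filter at the 75th percentile. With 1 probe set per gene, the mean over probe sets equals the reported value.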

Other observations

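The gap between the SLR of the authors' deposited table and the relative log2 ratio was -2.39 for Pck1. Of the other 1066 expressed named genes, 13 had a lower gap, and of the 278 brightest, those with a mean log2 signal at or above the 90th percentile, 3 did. For Slc2a5 the gap was -1.65, with 52 genes lower, and for Slc2a2 it was -0.09, with 611 genes lower. Of the 1625 listed probe sets, 515 did not count as expressed, as was the case for Slc5a1, and 321 had at least 1 signal under the floor. The 18 hybridisation spikes, RNAs added for quality control, stood at 0.12 (median log2 ratio as deposited), which is 1.09 above the array-wide shift. The 3' to 5' signal ratio of Gapdh was 0.773 on the high-glucose array and 0.706 on the control array, and that of Actb was 2.87 and 2.33 on those arrays.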
